A study of Caenorhabditis elegans with 2 samples.

Results

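Distal intronic peaks of EOR-1 are the candidate binding sites on the autosomes whose summit lies inside a protein-coding gene body, in no exon of a protein-coding transcript, and more than 1000 bp from every protein-coding transcript start. The rule uses position alone, applied to a list of candidates that the authors made from the pooled reads of both replicates on the ce11 genome. It reads no signal value, replicate list or sequence. The rule kept 813 of the 6708 pooled candidates. The other autosomal candidates numbered 4510. Of these, 2937 lay within 1000 bp of a start. A further 1149 lay farther out and outside protein-coding genes (distal intergenic), 356 lay farther out in coding exons (distal coding exon) and 68 in other exonic sequence. The experiment was ChIP-seq for GFP-tagged EOR-1 in whole L3 larvae, both sexes pooled, of C. elegans strain OP81. These animals have the genotype unc-119(ed3) III and carry the eor-1 transgene wgIs81, and there was 1 group with 2 biological replicates and no other genotype. Signal from different cell types of the larva cannot be told apart.

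EOR-1 is a BTB and zinc finger transcription factor related to human PLZF, which acts with EOR-2 as a positive effector of Ras and Wnt signalling in larval development. Sequences rich in GA dinucleotides are the known type of site for this protein. Introns of worm genes can hold enhancers, alternative promoters and genes for small RNAs, and long introns are often the first of their gene.

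The sequence AGACGCAG, called the core below, had been chosen with earlier results of these data known. It was present at 6 of the 12 distal intronic peaks in the top 100 ranks and at 13 of the 43 in the top 500. Other autosomal peaks in the top 100 had it at 17.6% of 68, with overlapping intervals. From there to rank 500 the shares were close, at 22.6% of distal intronic and 21.9% of other autosomal peaks. The differences in these ranks were not tested. Shown here are 61 bases at each of the 8 strongest peaks, off the chromosome whose sequence is not printed here, that held AGACGCAG within 100 bp of the summit. All are from the RefSeq ce11 genome, 5′ to 3′, on the strand that reads AGACGCAG, which is in capitals.
Y111B2A.12, rank 12, chrIII:12612638-12612698, minus strand: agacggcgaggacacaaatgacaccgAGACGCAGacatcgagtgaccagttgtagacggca
mnk-1, rank 25, chrII:10552185-10552245, minus strand: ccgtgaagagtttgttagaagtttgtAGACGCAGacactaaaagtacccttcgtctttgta
W06H8.6, rank 31, chrV:6224610-6224670, plus strand: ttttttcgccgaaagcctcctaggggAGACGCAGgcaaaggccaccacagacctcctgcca
Y43F8B.2, rank 74, chrV:19529378-19529438, minus strand: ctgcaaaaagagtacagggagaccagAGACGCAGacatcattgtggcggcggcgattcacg
mpk-1, rank 82, chrIII:4223774-4223834, plus strand: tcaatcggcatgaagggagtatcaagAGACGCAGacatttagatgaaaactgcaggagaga
psd-1, rank 100, chrIII:7272321-7272381, plus strand: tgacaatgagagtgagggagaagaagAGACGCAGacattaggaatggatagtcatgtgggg
epg-9, rank 113, chrIV:2602150-2602210, minus strand: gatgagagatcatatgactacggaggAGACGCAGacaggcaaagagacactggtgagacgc
daf-5, rank 247, chrII:14050648-14050708, plus strand: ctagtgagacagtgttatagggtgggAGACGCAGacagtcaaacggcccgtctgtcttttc

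In 7 of these 8 the core was followed directly by ACA, the exception being W06H8.6. The next set shows the 3 strongest peaks, under the same restriction, that lacked AGACGCAG. They are drawn around the nearest GAGAGA, in capitals, so that the other sequence counted below can be seen in place.
pqn-41, rank 26, chrIII:1925206-1925266, minus strand: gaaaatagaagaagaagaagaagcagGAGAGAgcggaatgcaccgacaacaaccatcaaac
gei-4, rank 54, chrIII:349783-349843, plus strand: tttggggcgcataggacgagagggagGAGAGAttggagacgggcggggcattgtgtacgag
zfp-1, rank 71, chrIII:8797203-8797263, plus strand: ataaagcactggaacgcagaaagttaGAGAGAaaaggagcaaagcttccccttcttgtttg

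Ranks are by the authors' signal value in the pooled list, from the strongest down, so "above 1000" means weaker than the 1000 strongest. Equal signal values were ordered by chromosome and position. Many weak peaks were tied, so the order of ranks within a tie carries no difference in signal. The signal value is the peak caller's own and was compared between lists only through its rank. Over the 813 distal intronic peaks it ran from 2.05 to 30.7 with a median of 2.996, against a range of 2.05 to 113.8 and a median of 3.103 over the other autosomal peaks. The strongest distal intronic peak thus stood far below the strongest peak near a start, while the medians were close.

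The strongest of the set lay in an intron of Y111B2A.12 (chromosome III, 12612518 to 12612921, intron of 7076 bp). It had a signal of 30.7 in the pooled list, ranked 14 in replicate 1 and 11 in replicate 2, and was the only one of the 4 strongest distal intronic peaks among the 20 highest ranks of both replicates. A weaker peak of rank 130 lay 209 bp from it and had the same partners in both replicate lists. The peak in the first intron of mnk-1, which encodes a kinase of the MAP kinase-interacting family (chromosome II, 10551995 to 10552398, signal 21.01), ranked 25 and 81. The peak in W06H8.6 (chromosome V, 6224456 to 6224859, signal 19.9) ranked 18 and 147. In contrast, the peak in pqn-41, a gene for a glutamine-rich protein (chromosome III, 1925126 to 1925529, signal 20.95), ranked 317 in replicate 1 and had no summit within 200 bp in replicate 2. These 4 were the distal intronic peaks kept by the authors' irreproducible discovery rate (IDR) threshold, 4 of 813, or 0.492%, which equals the share in the whole pooled list (0.492%, 33 of 6708).

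Among the next ranks, the mpk-1 gene, which encodes the ERK MAP kinase at the end of the Ras cascade, had a peak in an intron of 8247 bp, 4181 bp upstream of its nearest start (chromosome III, 4223622 to 4224025, signal 15.6), at rank 61 in replicate 1 and 1200 in replicate 2. The replicates thus placed it far apart. The zfp-1 gene, the worm homologue of AF10, had 3 distal intronic peaks at pooled ranks 71, 89 and 456, all in the same intron of 3573 bp. Those of ranks 89 and 456 had summits 205 bp apart, and the peak of rank 89 ranked 10 in replicate 2 with no partner in replicate 1. The let-526 gene, an ARID protein gene of the SWI/SNF complex, had 4, with the strongest at rank 60 (rank 8 in replicate 1 and 411 in replicate 2). A peak in gei-4, which encodes a GEX-interacting protein, ranked 32 and 82 in the replicates.

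The remaining peaks among the 20 strongest lay in T28F4.1, Y43F8B.2, psd-1 (phosphatidylserine decarboxylase), R02F2.1 (2 peaks), epg-9 (an autophagy protein), daf-5 (a Sno/Ski family protein of the dauer TGF-β pathway), R107.5, sea-2 (a zinc finger protein) and ppfr-1 (a regulatory subunit of protein phosphatase 4). Their pooled signal ran from 11.6 at ppfr-1 to 18.6 at T28F4.1. Ranks in the replicates often lay far apart: the stronger daf-5 peak (chromosome II, 14040104 to 14040507) ranked 960 in replicate 1 and 16 in replicate 2, and sea-2 ranked 150 and 2175. The ppfr-1 peak was in the list of replicate 2 only, at rank 32, and the R107.5 peak in that of replicate 1 only, at rank 382.

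**Figure D1:**
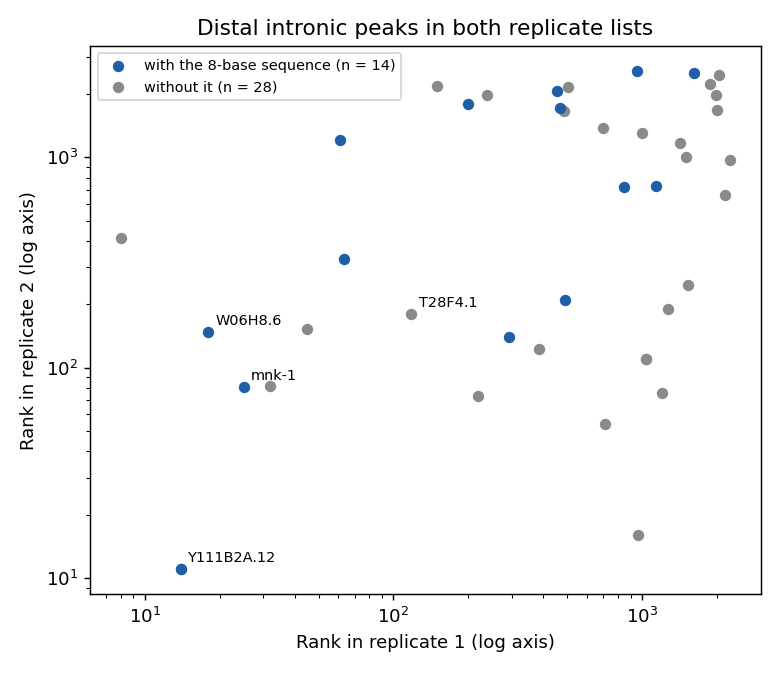
Rank in replicate 1 (x, log axis) against rank in replicate 2 (y, log axis) of the 42 distal intronic peaks with a summit within 200 bp in both lists, blue with AGACGCAG (14 peaks) and grey without (28). The Y111B2A.12 point holds 2 peaks, 1 of each kind, and most other points lie far from the diagonal.

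Across the whole set, 42 of 813 distal intronic peaks (5.17%, exact Clopper-Pearson 95% interval 3.75 to 6.92) had a summit within 200 bp in both replicate lists, against 369 of 4510 other autosomal peaks (8.18%, interval 7.40 to 9.02). The difference passed Fisher's exact test (two-sided, p = 0.00264, Benjamini-Hochberg p = 0.00659 over the 15 tests made). The test did not match peaks by rank, and sharing fell with rank. In the top 100 ranks 83.3% of distal intronic and 88.2% of other autosomal peaks were shared. From there to rank 500 the shares were 58.1% and 55.4%, and on to rank 1000 they were 15% and 25.6%. Up to rank 2500 they were 4.94% and 5.21%, to rank 5000 0% and 0.608%, and beyond it 0% and 0.260%. A difference in sharing at a given rank was not tested. A summit in at least 1 replicate list was found for 383 of the 813 (47.1%), in replicate 1 for 223 (27.4%) and in replicate 2 for 202 (24.8%). These last 3 shares were not compared with those of other autosomal peaks, so whether they are usual for the list is not shown. The 42 held 40 distinct pairs of replicate summits, and 13 of the 42 ranked within the 500 strongest of both replicates. Spearman's rho between the replicate ranks was 0.37 over these 42, a description of peaks that share their libraries. The pooled list was made from the reads of both replicates, so a pooled peak and its partners in the replicate lists rest on common reads. Against distal intergenic peaks sharing was lower (5.17% against 8.09%), and against distal coding exon peaks it was higher (5.17% against 1.97%), each with an adjusted p of 0.0212 (Fisher's exact test). Both of these calls were lost in the list of replicate 1, at 14.9% against 20.8% and 14.9% against 7.14% shared with the other replicate (adjusted p = 0.0765 and 0.0827, exact), and with summits required within 100 bp (3.57% against 5.31% and 1.69%, adjusted p = 0.0916 and 0.109, exact). With the start distance set to 2000 bp the call against distal intergenic peaks was also lost (5.76% against 7.89%, adjusted p = 0.258, exact), and the difference from other autosomal peaks kept its sign but no longer passed (5.76% against 7.89%, Fisher's exact test, adjusted p = 0.146).

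Distal intronic peaks were also found less often among the strongest. Of the 813, 43 were among the 500 strongest pooled peaks (5.29%, interval 3.85 to 7.06), against 346 of 4510 other autosomal peaks (7.67%) and 7.45% of the whole list (Fisher's exact test, adjusted p = 0.0259). Against the 1149 distal intergenic peaks, of which 86 were in that class (7.48%), the difference did not pass (adjusted p = 0.0739, exact). It did pass against distal coding exon peaks, of which 2 of 356 (0.562%) were as strong (adjusted p = 5.91e-05, exact). The call against other autosomal peaks was lost in each replicate's own list, at 16.5% against 20.7% in replicate 1 and 14.7% against 19.4% in replicate 2 (adjusted p = 0.148 and 0.0739, exact), and with the 250 strongest peaks (2.83% against 3.84%, adjusted p = 0.217, exact).

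**Figure D2:**
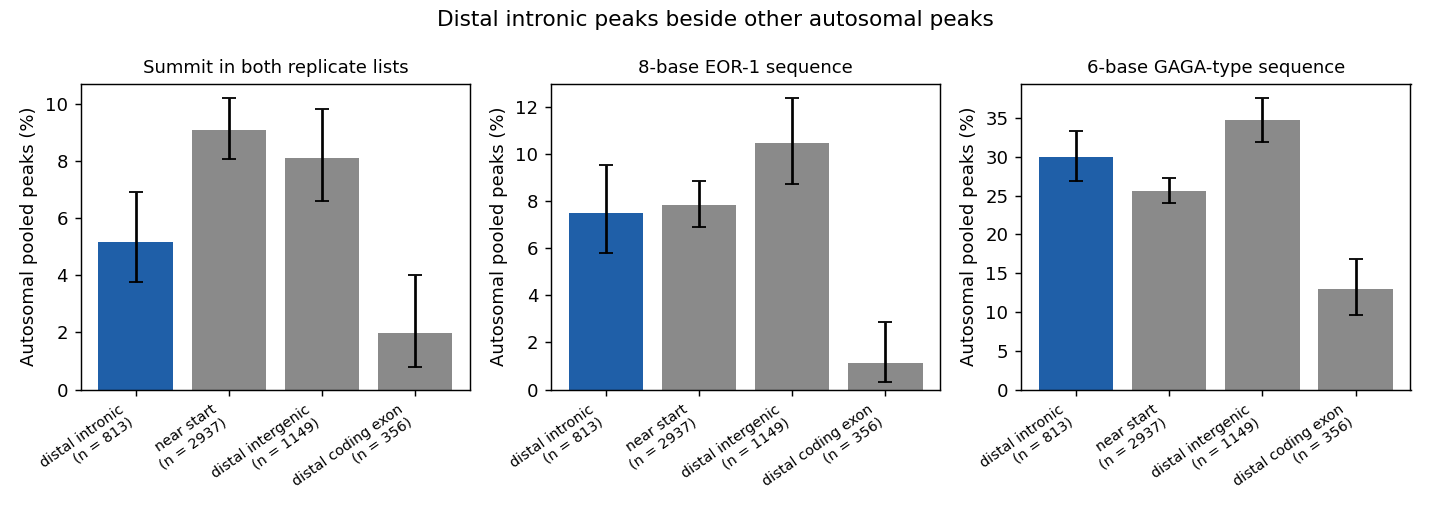
Share of autosomal pooled peaks (y, percent) with a summit in both replicate lists (left), with AGACGCAG (middle) and with GAGAGA (right) for distal intronic peaks (blue, n = 813) and 3 other position classes (grey). Bars are exact 95% intervals, and in all 3 panels distal intronic peaks lie above distal coding exon peaks and below distal intergenic peaks.

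The sequence content differed most from that of coding exon peaks. Both sequences had been chosen with earlier results of these data known. They were searched on both strands, and matches of AGACGCAG and GAGAGA may overlap. AGACGCAG, on either strand within 100 bp of the summit, was present at 61 of 813 distal intronic peaks (7.50%, interval 5.79 to 9.53), against 356 of 4510 other autosomal peaks (7.89%, Fisher's exact test, adjusted p = 0.777) and 4 of 356 distal coding exon peaks (1.12%, adjusted p = 4.98e-06, exact). Distal intergenic peaks had it more often than distal intronic ones did, with 61 of 813 against 120 of 1149 (10.4%, adjusted p = 0.0401, exact). GAGAGA was present at 244 distal intronic peaks (30.01%), 12.9% of distal coding exon peaks (adjusted p = 1.63e-09, exact) and 34.7% of distal intergenic peaks (adjusted p = 0.0432, exact). Neither call against distal intergenic peaks held in the list of a single replicate. For AGACGCAG it was 9.64% against 11.6% in replicate 1 and 11.3% against 14.5% in replicate 2 (adjusted p = 0.48 and 0.277, exact), and for GAGAGA 37.3% against 42.5% and 32.2% against 37.2% (adjusted p = 0.227 and 0.201, exact).

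As a background, 201 bp windows tiled over all autosomal intronic bases that meet the position rule held AGACGCAG in 1.25% of 81918 cases and GAGAGA in 8.30%. The median GC content was 40.8% at distal intronic peaks and 33.3% in those windows, and the part of base composition in the sequence shares was not tested. Sequence in lower case in the RefSeq genome file (soft-masked, which marks repeats and low-complexity sequence) held 29.8% of distal intronic summits, against 23.2% of other autosomal summits and 55.6% of the eligible intronic bases.

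Within the set, both sequences were more frequent at the strongest peaks. AGACGCAG was present at 13 of the 43 distal intronic peaks among the 500 strongest pooled peaks (30.2%, interval 17.2 to 46.1), against 40 of the 730 ranked above 1000 (5.48%, interval 3.94 to 7.39), with the odds 7.475 times as high (Fisher's exact test, adjusted p = 4.98e-06). GAGAGA was present at 30 of 43 (69.8%) against 192 of 730 (26.3%), with the odds 6.47 times as high (adjusted p = 8.03e-08, exact). Both sequences were chosen with earlier results of these data known. These p-values therefore describe the deposited lists and are not independent support for either sequence. In the 12 distal intronic peaks of the top 100 ranks, 6 had AGACGCAG and 10 had GAGAGA. Ranked within replicate 1 alone, AGACGCAG was at 22.0% of strong against 8.18% of weak distal intronic peaks (adjusted p = 0.0362, exact). In replicate 2 alone the difference was small and did not pass (13.95% against 10.9%, adjusted p = 0.641, exact), while GAGAGA passed in both (65.9% against 28.9% and 51.2% against 27.6%, adjusted p = 6.28e-05 and 0.00943, exact). Strong peaks also had a higher median GC content (47.3% against 39.8%) and fewer soft-masked summits (16.3% against 31.2%), and the part of these in the result was not tested.

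**Figure D3:**
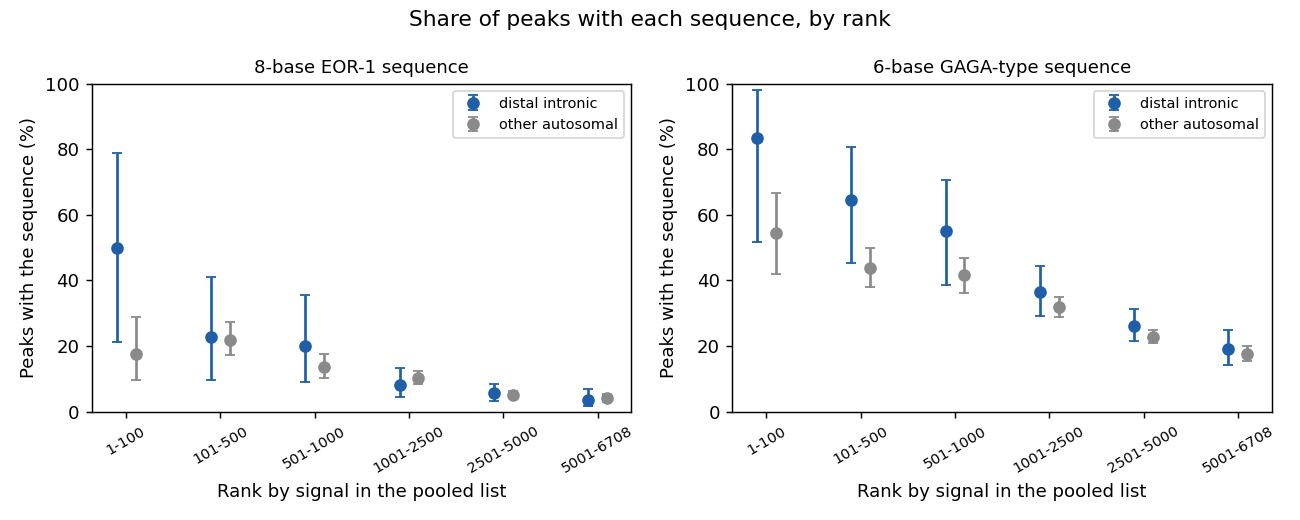
Share of peaks (y, percent) with AGACGCAG (left) and GAGAGA (right) by rank in the pooled list (x), for distal intronic peaks (blue) and other autosomal peaks (grey), with exact 95% intervals. In the top 100 ranks 6 of 12 distal intronic peaks had AGACGCAG against 17.6% of 68 others, with overlapping intervals, and shares are lowest at the weakest ranks.

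Among the 1000 strongest pooled peaks alone, GAGAGA was more frequent at the 83 distal intronic peaks than at the 693 other autosomal peaks (62.7% against 43.7%, Fisher's exact test, adjusted p = 0.0038). Over all ranks the same difference was smaller and did not pass (30.01% against 26.8%, adjusted p = 0.0739, exact). For AGACGCAG the top 1000 gave 25.3% against 17.3% (adjusted p = 0.103, exact). In this range distal intronic and distal intergenic peaks had GAGAGA at 62.7% and 57.1% (adjusted p = 0.45, exact), so the order seen over all ranks was not found among the strongest.

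The core was denser near the summit than 350 to 400 bp from it. In the 83 distal intronic peaks of ranks 1 to 1000, AGACGCAG had 1.57 matches per kb within 50 bp of the summit (exact Poisson 95% interval 0.834 to 2.68). It had 1.08 at 50 to 100 bp, 0.964 at 100 to 150 bp (interval 0.416 to 1.90) and 0.120 at 350 to 400 bp (interval 0.00305 to 0.671). The intervals within 150 bp overlap widely. In the 730 weaker peaks the values were 0.425 within 50 bp (interval 0.289 to 0.603) and 0.110 at 350 to 400 bp. Of the 61 peaks with the core, 41 had the nearest copy within 50 bp, and 13 of 21 in ranks 1 to 1000. These peaks were picked for a core within 100 bp, so many fall within 50 bp by placement alone. The core read along the strand of the host gene in 20 of the 61. GAGAGA was also present within 100 bp of the summit in 41 of the 61 (67.2%), against 203 of the 752 peaks without the core (26.99%), and 549 peaks had neither sequence.

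**Figure D4:**
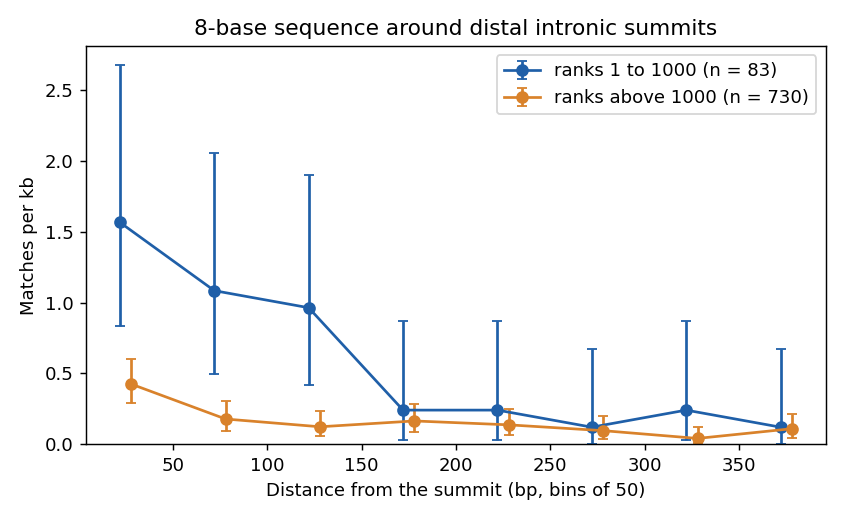
Matches of AGACGCAG per kb (y) by distance from the summit in bins of 50 bp (x), for distal intronic peaks of ranks 1 to 1000 (blue, n = 83) and above 1000 (orange, n = 730), with exact Poisson 95% intervals. Stronger peaks start at 1.57 per kb and weaker ones at 0.425, and the intervals of the groups overlap from 150 bp outward.

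Most copies of the core in introns had no candidate peak. Of 1124 occurrences in eligible autosomal introns, 66 (5.87%) lay within 100 bp of a pooled summit and 23 (2.05%) within 100 bp of one ranked 1 to 1000. These shares have no background of eligible bases beside them. Per 201 bp window, the core was at 7.50% of distal intronic peaks and 1.25% of the tiled windows. The tail ACA, noticed in the printed sequences, followed 11 of those 23 (47.8%, interval 26.8 to 69.4), 11 of the 43 near weaker summits (25.6%, interval 13.5 to 41.2) and 145 of the 1058 away from summits (13.7%, interval 11.7 to 15.9). Read the other way, a pooled summit lay near 22 of the 167 occurrences with the tail (13.2%) and near 44 of the 957 without it (4.60%). Soft-masked sequence held 68.9% of all occurrences, with 82.6% of those with the tail and 66.5% of the others. Outside soft-masked sequence the counts were 6 of 29 (20.7%) and 23 of 321 (7.17%). No test is given, since the tail was picked from the 8 printed sequences, 7 of which have it. Those sequences lie near summits of ranks 1 to 1000 and are included in the counts near summits above. Counts without them are not given, so the shares near summits are not independent of how the tail was found.

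Distal intronic peaks were held by 579 host genes, 5.41% of the 10707 autosomal protein-coding genes with any eligible intronic base. Of the hosts, 451 had 1 peak, 72 had 2 and 56 had 3 or more. The median host intron was 3194 bp long (quartiles 775 and 6744 bp), and the median distance to the nearest start was 2034 bp. Introns of at least 5000 bp held 283 of 813 peaks (34.8%) but 14.7% of the eligible bases. The first intron of a transcript held 294 peaks (36.2%) against 16.1% of the eligible bases. In ranks 1 to 1000 the first-intron share was 51.8% (43 of 83, interval 40.6 to 62.9), against 34.4% of the weaker peaks (interval 30.9 to 37.96). The median intron was also longer there, at 4309 bp against 2881 bp. First and long introns can be the same introns, and the parts of intron order and length were not tested. By chromosome, peaks per 100 kb of eligible introns ran from 4.23 on V to 5.85 on II. Those of ranks 1 to 1000 varied more, from 0.286 per 100 kb on chromosome I (11 peaks in 3847 kb) to 0.866 on chromosome III (30 peaks in 3464 kb).

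The hosts with most peaks were daf-5 with 9, ercc-1 with 8, and pqn-41, ppfr-1, T28B11.1 and pkg-2 with 7 each, the last 4 tied. The 9 in daf-5 had signal values of 2.16 to 12.02, and 8 of them lay in an intron of 14446 bp. The core was at 2 of the 9. In ercc-1, which encodes a subunit of a nucleotide excision repair nuclease, all 8 lay in 1 intron of 11671 bp with signal values of 2.78 to 4.19. None of the 8 ranked better than 1931, and none had the core or a summit in both replicates. In pqn-41 the signal ran from 2.58 to 20.95, and 2 of the 7 ranked within 1000. The best rank in pkg-2, a cGMP-dependent protein kinase gene, was 1823, and in T28B11.1 it was 1238. A long intron could thus hold many weak candidates without a strong one.

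**Figure D5:**
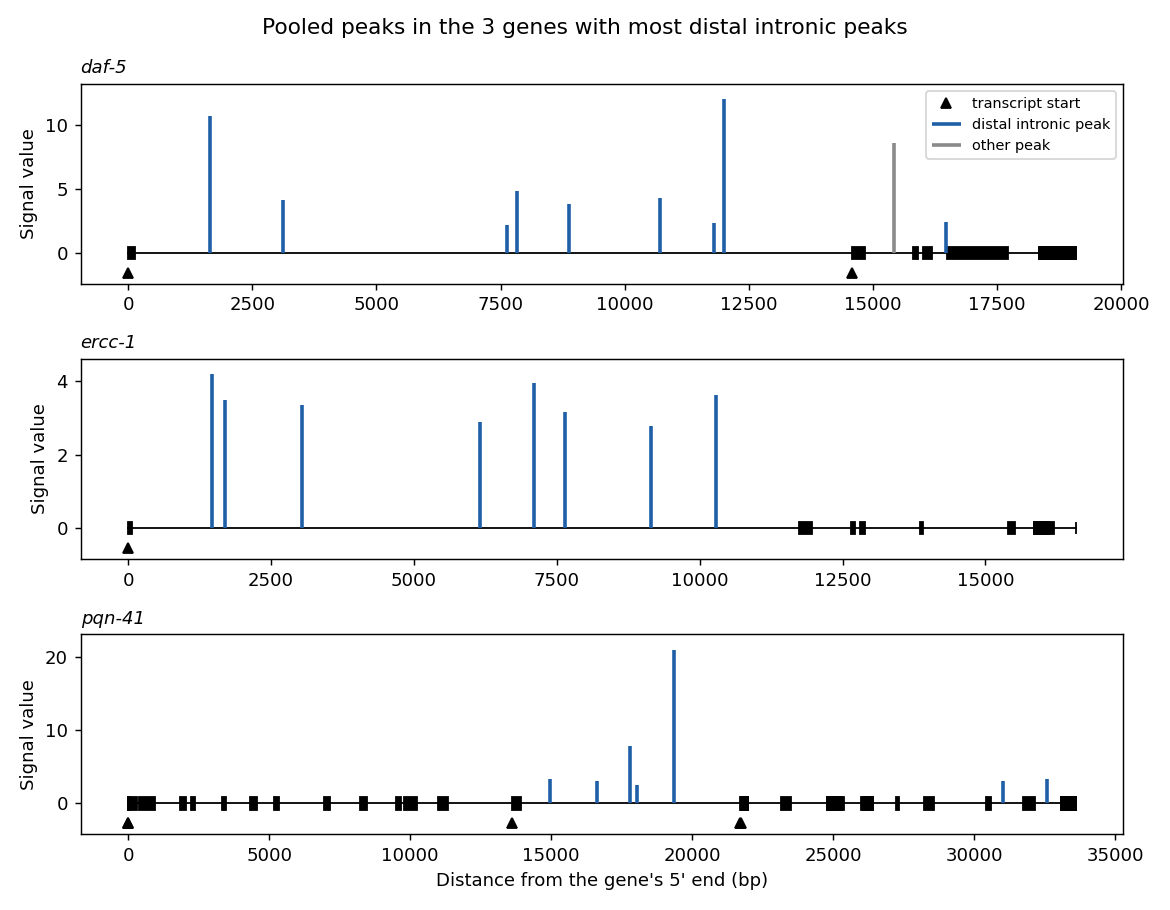
Signal value (y) of pooled peaks along the genes daf-5, ercc-1 and pqn-41 (x, distance in bp from the gene's 5′ end), with exons as black boxes and transcript starts as triangles. Distal intronic peaks (blue; 9, 8 and 7) lie mostly in a long intron of each gene, and scales differ between panels, with a maximum of 12.02 in daf-5, 4.19 in ercc-1 and 20.95 in pqn-41.

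Gene groups were described by counts of hosts. All 8 lists, chosen with earlier results of these data known, had more eligible intron per gene than autosomal genes at large. Their medians ran from 1.28 kb (Wnt and Hox genes) to 6.15 kb (axon guidance and synapse genes), against 0.556 kb over all genes. Counts of hosts were not corrected for this, and the part of intron length in them was not tested. Over all autosomal genes, 579 of 10707 were hosts (5.41%), 62 of 10707 had a peak of ranks 1 to 1000, and there were 4.87 peaks per 100 kb of eligible introns. Chromatin genes had 2 hosts of 33 genes with eligible introns (6.06%, near the share over all genes), with 8.82 peaks per 100 kb. These were let-526 and zfp-1, which held 5 of the 83 peaks of ranks 1 to 1000, including the zfp-1 pair 205 bp apart. With summits within 500 bp joined as 1 locus, the 4 peaks of let-526 formed 2 loci and the 3 of zfp-1 formed 2. Over all genes the 813 peaks formed 773 loci. Values per 100 kb count peaks, not loci, so neighbouring peaks raise them. Insulin, stress and longevity genes had 5 hosts of 24 with 16 peaks (15.3 per 100 kb). Of these, 9 were in daf-5, a gene of the dauer TGF-β pathway, so 1 gene gave most of this list's peaks. The others named by rank were let-363, the TOR kinase gene (rank 394), and daf-2, the insulin receptor gene (rank 696, with AGACGCAG, rank 1136 in replicate 1 and 728 in replicate 2). Transcription factor genes had 13 hosts of 47 (11.4 per 100 kb), led by pqm-1, a zinc finger factor (rank 211), egl-44, a TEAD factor (rank 525), and hlh-30, the TFEB homologue (rank 1122).

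Ras, MAPK and vulval genes had 7 hosts of 25 (6.90 per 100 kb). After mpk-1 at rank 82 came lin-10, a PDZ protein gene, at rank 716 and lag-1, the nuclear effector of Notch, at rank 966. Axon guidance and synapse genes had 15 hosts of 34 (9.42 per 100 kb), with longer introns (median 6.15 kb of eligible sequence per gene, against 0.556 kb over all genes). The strongest were sax-7, an L1CAM cell adhesion protein (rank 623), goa-1, a Go alpha subunit (rank 697), and unc-43, the CaM kinase II gene (rank 835, with AGACGCAG). Wnt and Hox genes had 5 hosts of 31 (10.3 per 100 kb), with lit-1, a Nemo-like kinase, at rank 1719, mig-1, a Frizzled receptor, at rank 2095 and cam-1, a ROR receptor kinase, at rank 2783. Body wall muscle genes (5 hosts of 27, 5.79 per 100 kb, led by egl-19, unc-52 and dys-1 at ranks 1654, 2266 and 4852) and epidermis and junction genes (6 hosts of 25, 6.40 per 100 kb, led by hmr-1, vab-10 and fbn-1 at ranks 1569, 3105 and 4434) followed. None of the genes in these last 3 lists had a peak of ranks 1 to 1000, which lists of this size show little about, since 62 of 10707 genes had one.

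Genes for non-coding RNA lay within 200 bp of 120 of 813 distal intronic summits (14.8%, interval 12.4 to 17.4), against 596 of 4510 other autosomal summits (13.2%, Fisher's exact test, adjusted p = 0.258). By type, a gene annotated only as ncRNA was near 89 of the 813 (10.9%), against 9.40% of other autosomal summits, and a tRNA gene near 16 (1.97%), against 1.13%. A piRNA gene was near 1.48% against 1.51%, a snoRNA gene near 1.23% against 1.31% and an antisense RNA gene near 8 (0.984%), against 8 of 4510 (0.177%). The types were not tested one by one, and a summit could be near several. At the edge of the position rule, the 105 members at most 200 bp past the limit of 1000 bp had a median signal of 3.102 and AGACGCAG at 4.76%, and the 103 intronic peaks at most 200 bp short of it, which the rule left out, had 2.93 and 9.71%.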

How the data were processed

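EOR-1 ChIP-seq peaks were taken from the ce11 lists that the authors deposited in narrowPeak format: 1 list per replicate, 1 from pooled reads and 1 after IDR thresholding, each made against control data that were not analysed here, per the deposited file lists. The unit used was the signal value of each peak as the authors deposited it. The labels and file lists name no normalization, peak caller, aligner or versions (all "not given" in the sources here). Lists include background entries, so weak members are candidates. Read depth is unknown, and intervals cover the counting of peaks only.

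Summits were placed on Ensembl release 115 genes (WBcel235, which is ce11), with sequence from RefSeq for the same assembly. A host intron was the shortest containing the summit. Two-sided Fisher's exact tests (scipy 1.17.1) compared shares, with Benjamini-Hochberg adjustment over 15 tests. For an alternative setting, its p-value took the place of that of its main test among the 15. Adjusted p-values of alternative settings thus do not count the other settings tried. Peaks are not biological replicates, so p-values describe the deposited lists. Summits within 500 bp of each other were joined as 1 locus: 79 members had such a neighbour, which left 773 loci. The set, the 8-base and 6-base sequences and the 8 gene lists were chosen with earlier results of these data known. Named genes were hosts of the 20 strongest members, of thresholded members, of the 5 hosts with most members (6, with ties) and up to 3 per gene list. Fixed checks on simulated sequences recovered planted sequences, classes and shared summits.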

Additional observations from a re-analysis of the deposited data

How the results depend on the processing

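Of 108 alternative settings, 73 kept direction and side of the adjusted 0.05 threshold. Values below are percentage points, distal intronic minus the group named, and the cause of each change was not tested. Settings based on soft-masking and neighbouring peaks were chosen after seeing the data. With a start distance of 2000 bp, the share in the 500 strongest against other autosomal peaks (-2.47), sharing between replicates against other autosomal (-2.13) and distal intergenic peaks (-2.13), and AGACGCAG (-2.06) and GAGAGA (-3.14) against distal intergenic peaks no longer passed. With 500 bp, AGACGCAG against distal intergenic peaks (-2.13) no longer passed and the 500 strongest against them (-2.66) did. At the start distance of 1000 bp, the 1000 strongest against distal intergenic peaks also passed (-5.02). The 250 strongest gave -1.01 against other autosomal peaks. Sharing within 100 bp gave -1.74 against distal intergenic and 1.88 against distal coding exon peaks, neither passing. AGACGCAG against other autosomal peaks, which never passed, turned to 0.264 (500 bp), 0.0865 (2000 bp), 0.308 (window of 50 bp), 7.99 (1000 strongest only) and 0.439 (no soft-masked summits). Against distal intergenic peaks it was -1.78 with a 50 bp window and -2.19 without soft-masked summits, neither passing, and 2.44 in the 1000 strongest. Against distal coding exon peaks the 1000 strongest, with 11 such peaks, gave 7.12 and no call. GAGAGA against other autosomal peaks was -0.220 with a 50 bp window, and passed in the 1000 strongest (18.9) and without soft-masked summits (6.65). Against distal intergenic peaks it was 5.51 in the 1000 strongest and -2.14 without soft-masked summits, neither passing. In the list of 1 replicate at a time, the ranges were -4.69 to -4.26 for the 500 strongest, -0.900 to 2.65 for AGACGCAG and 4.97 to 5.50 for GAGAGA against other autosomal peaks. They were -8.28 to -5.92 (sharing), -3.19 to -2.01 (AGACGCAG) and -5.12 to -5.01 (GAGAGA) against distal intergenic peaks, 7.72 to 9.53 for sharing against distal coding exon peaks, and 3.02 to 13.8 for AGACGCAG in strong minus weak distal intronic peaks.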

Other observations

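On the X chromosome, which holds none of the 813 peaks, 228 peaks met the same position rule. AGACGCAG was present at 7 of them (3.07%, exact interval 1.24 to 6.22), against 61 of 813 on the autosomes (7.50%, interval 5.79 to 9.53), and the difference was not tested. GAGAGA was present at 57 of 228 on the X chromosome and 244 of 813 on the autosomes.

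The 8-mers found within 100 bp of the summit at 5 or more of the 83 distal intronic peaks of ranks 1 to 1000 were put in order by a one-sided Fisher statistic against the 730 weaker ones. The order is a description and depends on that statistic: by difference in share AGACGCAG stands above ACGCAGAC. ACGCAGAC came first of 248 (16 of 83, or 19.3%, against 18 of 730, or 2.47%), then AGACGCAG (21 of 83 against 40 of 730) and GACGCAGA (19 against 37). The same statistic was taken on X chromosome peaks of all position classes, with strong peaks drawn from the 500 strongest. There AGACGCAG came at place 4 of 363 (16 of 111 strong peaks, against 34 of 1161 above rank 1000), after CGCAGGGA, CATACACA and ACATACAC. Because the peak sets and cutoffs differ, the places in the autosomal and X orders are not comparable.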
